A study of Homo sapiens with 12 samples.

Results

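Ribosome biogenesis was followed through 55 genes, chosen by symbol, in HK2 cells, an immortalised line of human proximal tubular epithelial cells. They comprise 6 genes of RNA polymerase I and its initiation factors, 8 of the small nucleolar ribonucleoproteins (snoRNPs), 2 abundant nucleolar proteins, 21 of the small subunit processome and 40S assembly, and 18 of 60S assembly. All 55 were among the 24342 genes that passed the filter on low counts, out of 58278 genes listed. The comparisons ask how the mRNA of this machinery stood after tumour necrosis factor-α (TNF-α), and how it stood when the short-chain fatty acids (SCFAs) propionate or butyrate were given before or after it. Each of 6 groups held 2 libraries. Ctrl cells were untreated and TN cells received TNF-α at 5 ng/mL for 3 h. PRTN and BUTN cells were exposed to 15 mM propionate or 3 mM butyrate for 24 h and then to TNF-α. TNPR and TNBU cells were given the same SCFAs for 24 h after TNF-α. These treatments are those given for each sample and in the series design, whereas a general treatment text in the same labels names thapsigargin and JQ1, which no sample's own label mentions. All groups other than Ctrl carried TNF-α, and a group with an SCFA alone was not analysed here. A group kept for the further 24 h after TNF-α without an SCFA was not analysed here either, so time and SCFA cannot be told apart in TNPR and TNBU. The doses of propionate and butyrate differed, so compound and dose cannot be told apart.

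Ribosomes are made in the nucleolus. RNA polymerase I, brought to the ribosomal DNA by factors such as UBTF and RRN3, transcribes a long precursor RNA that snoRNPs modify at many sites. The small subunit processome folds and cleaves the 5′ part of this precursor on the way to the 40S subunit, and a second set of factors builds the 60S subunit from the rest. These genes are known as targets of the transcription factor MYC and as markers of growing cells, and tubular epithelial cells need ribosomes for growth and repair after injury.

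The libraries held 27269986 to 33851130 expected counts, and the 55 genes together took 0.429 to 0.604% of them. Expression is given in CPM, a gene's count relative to the total of its library, after scaling by TMM factors of 0.913 to 1.06. No member was close to the limit of detection, since the lowest expected count of any member in any library was 272. The mean level of the members over the 12 libraries ran from 13.8 to 698 CPM. Replicates of the members lay closest in PRTN and Ctrl, where the median absolute log2 difference between the 2 libraries was 0.0369 and 0.0388, and farthest apart in TNPR (0.101) and TNBU (0.167). The replicates are described as biological, and p-values measure only the spread between these samples. Of the 8 epithelial marker genes, 8 had a mean of 1 CPM or more, but the proximal tubule markers LRP2 and HNF4A were at 0 CPM in all Ctrl and TN libraries, and only 5 of 10 proximal tubule markers reached a mean of 1 CPM. In bulk RNA, fewer cells of a type and less RNA per cell cannot be told apart.

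With TNF-α alone, most members stood slightly higher than in untreated cells and 1 of them passed the test. A gene was called where its fold change was over 1.5 and its limma adjusted p was under 0.05. DDX21, an RNA helicase of the nucleolus that binds RNA polymerase I and precursor rRNA, was called higher in TN than in Ctrl, and 0 members were called lower, against 0.764% called higher and 0.534% called lower of all genes tested, and 1.22% and 0.49% of genes with a mean of at least 10 CPM. edgeR and DESeq2 also called 0 members lower, as did limma with an unadjusted p under 0.05. The level of DDX21 (ENSG00000165732.12, chr10:68956135-68985068, plus strand) was 263 and 284 CPM in Ctrl and 433 and 407 CPM in TN, without overlap. The difference was 0.62 on the log2 scale (standard error, SE, 0.12, limma adjusted p = 0.0111). This call was lost under scaling by library size alone, in a fit of the 4 libraries compared, at a 2-fold threshold, and without any 1 of these 4 libraries, with adjusted p from 1.23e-05 to 0.135 over the alternatives. The members' median log2 difference was 0.25, beside -0.01 for all genes tested, and 52 of 55 differences were above 0. Of all 24342 genes tested 11866 were above 0, and of the 10194 with a mean of at least 10 CPM 5410 were. Both TN libraries lay above both Ctrl libraries for 47 of 55 members, against 23.1% of all genes tested and 33.3% of genes with a mean of at least 10 CPM. With no threshold on the fold, 854 of 24342 genes tested passed the adjusted p. For genes with a mean of at least 10 CPM it was 691 of 10194. Among the members it was 17 of 55. Apart from DDX21 these were small differences: NOLC1, a chaperone of snoRNPs, stood at 264 and 277 CPM in Ctrl and 359 and 357 CPM in TN, and DKC1, the pseudouridine synthase of H/ACA snoRNPs, at 130.1 and 138 CPM in Ctrl and 178 and 168 CPM in TN. UBTF, the factor that opens ribosomal DNA for RNA polymerase I, went the other way without passing the test (log2 -0.20, SE 0.07, limma adjusted p = 0.134).

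With an SCFA, 22 to 26 of the 55 members were called lower than in TN and 1 or 2 higher. In PRTN, 22 of 55 members were called lower and 2 higher, against 16.7% and 23.9% of all genes tested. In BUTN these were 23 lower and 1 higher, against 14.8% and 23.1%. In TNPR they were 25 lower and 2 higher, against 16.9% and 24.9%, and in TNBU 26 lower and 2 higher, against 16.5% and 25% of all genes. The members' own shares called lower were 40, 41.8, 45.5 and 47.3% in the same order. The 55 genes were chosen with earlier results of these data known, and no test was run on the list. Since all members are well expressed, genes with a mean of at least 10 CPM are the closer background. Of these 10194 genes, 23.2% were called lower and 18% higher for PRTN, 21% and 15.3% for BUTN, 24.8% and 18.1% for TNPR, and 24.7% and 16.9% for TNBU. The median log2 difference of the members was -0.43 for PRTN, -0.48 for BUTN, -0.48 for TNPR and -0.55 for TNBU. For the genes with a mean of at least 10 CPM it was -0.11, -0.13, -0.12 and -0.14 in the same order. All 4 comparisons share the 2 TN libraries and are therefore not independent of each other. Scaling matters here, because library size alone moved the median of all genes by 0.156, 0.153, 0.173 and 0.196 on the log2 scale in PRTN, BUTN, TNPR and TNBU. Under that scaling 17, 15, 17 and 20 members were called lower and 3, 2, 3 and 2 higher, while all genes were split 12.8% lower and 27.9% higher for PRTN, 10.9% and 27% for BUTN, 12.9% and 29.7% for TNPR, and 11.7% and 30.1% for TNBU.

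**Figure D1:**
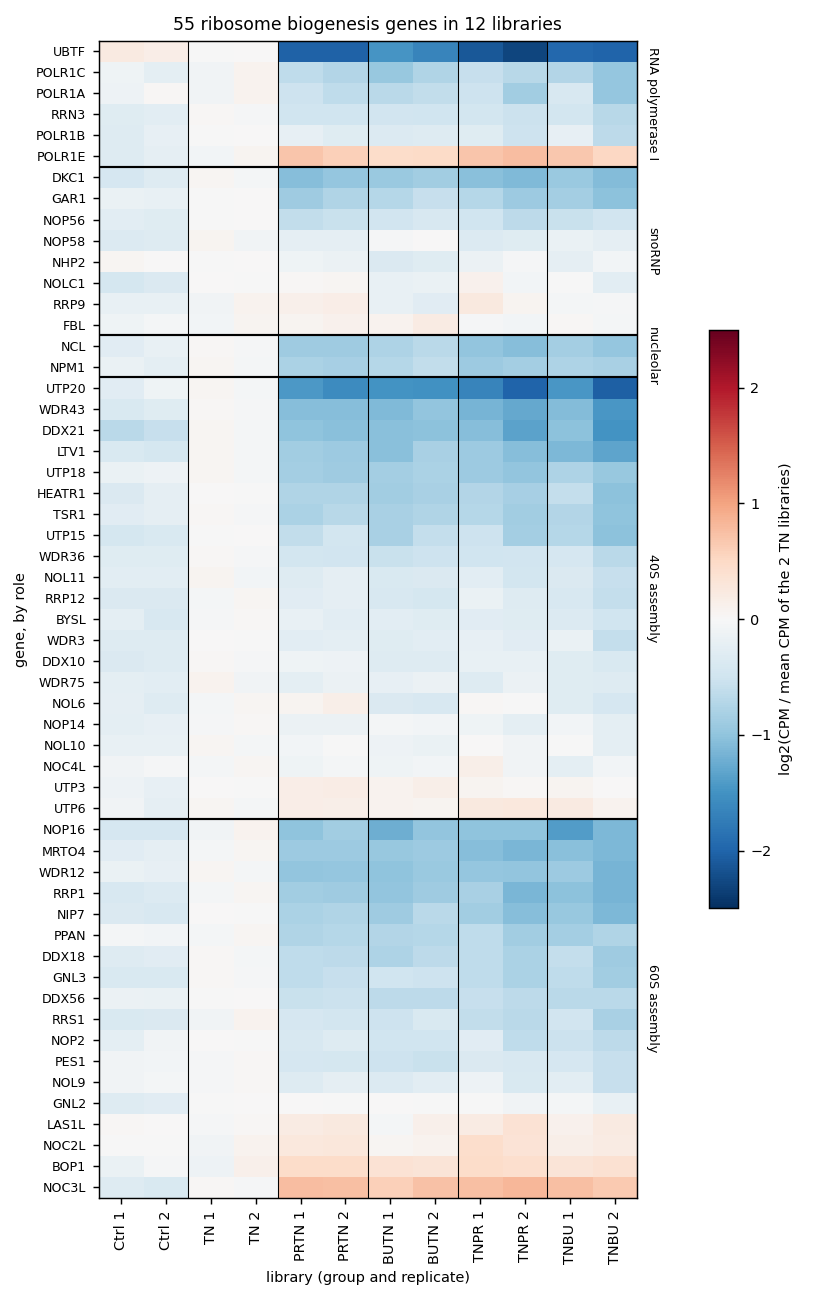
Colour gives the log2 ratio of each gene's CPM to the mean CPM of the 2 TN libraries, with the 12 libraries in columns and the 55 genes in rows by role, each role ordered by the mean change with an SCFA. Blue rows that span the 8 SCFA libraries are headed by UBTF, DKC1, UTP20 and NOP16, and the red rows POLR1E and NOC3L are higher in all 8 than in both TN libraries.

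**Figure D2:**
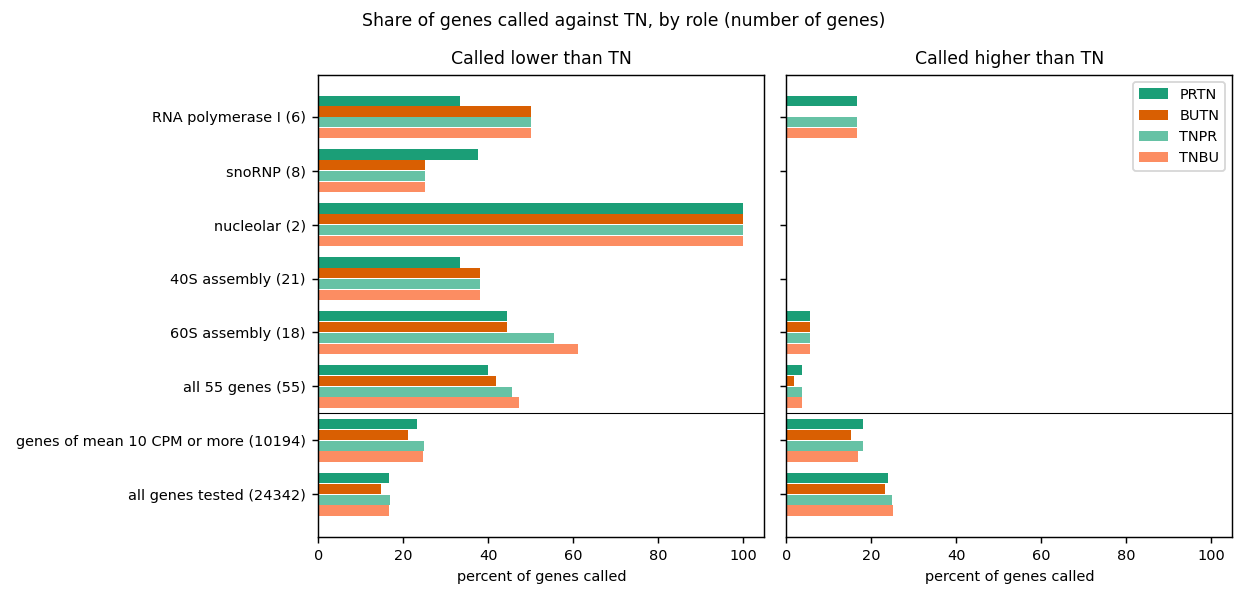
Bars give the percent of genes called lower (left) and higher (right) than in TN for each SCFA group, for the 5 roles, all 55 genes, genes with a mean of at least 10 CPM and all genes tested, with the number of genes in brackets. Over all 55 genes the lower calls number 22 to 26, whereas higher calls number 1 or 2.

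In the RNA polymerase I group, UBTF fell most of all 55 members. Of the 6 genes, 2 were called lower in PRTN and 3 in each of BUTN, TNPR and TNBU, and POLR1E was called higher in all but BUTN. The lower calls made up 33.3, 50, 50 and 50% of the group. Among genes with a mean of at least 10 CPM the share was 23.2, 21, 24.8 and 24.7%. UBTF (ENSG00000108312.14, chr17:44205033-44221626, minus strand) stood at 116 and 111 CPM for Ctrl, 98.0 and 99.3 for TN, 24.3 and 24.2 for PRTN, 35.6 and 31.4 for BUTN, 22.6 and 20.1 for TNPR and 25.4 and 24.7 for TNBU. The 8 SCFA libraries did not overlap with the TN or Ctrl libraries, and BUTN held the highest of the SCFA values. The log2 fold changes against TN were -2.02 for PRTN, -1.56 for BUTN, -2.21 for TNPR and -1.98 for TNBU (SE 0.07 to 0.08, limma adjusted p from 6.53e-10 to 7.26e-09). They kept their call under every alternative run. Per kilobase of exon, the level of UBTF went from 13.9 CPM in TN to 3.01 in TNPR. An overlapping antisense RNA shares 3.51% of its exon bases and had a mean of 0.499 CPM, beside 51.1 CPM for UBTF (both without TMM factors, as in all comparisons of overlapping genes).

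POLR1A (ENSG00000068654.15, chr2:86020216-86106155, minus strand), the largest subunit and catalytic core of RNA polymerase I, had the highest mean CPM of the group. It stood at 96.8 and 108 CPM for Ctrl, 98.9 and 112 for TN, 74.0 and 68.0 for PRTN, 66.6 and 69.2 for BUTN, 74.2 and 58.1 for TNPR and 79.6 and 54.2 for TNBU. The SCFA libraries all lay below the TN and Ctrl libraries, and the replicates of TNPR and TNBU differed most. Its log2 fold changes were -0.57 for PRTN, -0.63 for BUTN, -0.68 for TNPR and -0.69 for TNBU (SE 0.15, limma adjusted p from 0.00184 to 0.00563), of which the first did not pass the 1.5-fold threshold. The other calls were lost under scaling by library size alone, the one in BUTN also without TN replicate 2, the one in TNPR without TNPR replicate 2 and the one in TNBU without TNBU replicate 2. POLR1C, a subunit shared with RNA polymerase III, was called lower in all 4 groups, with log2 values of -0.68, -0.84, -0.63 and -0.85. It shares 6.32% of its exon bases with XPO5 on the other strand, which had a mean of 171 CPM beside 21.7 CPM for POLR1C. Whether the counting used strand is not given in the sources used here, so reads from such pairs could not be separated if it did not.

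RRN3, which recruits the polymerase to the initiation complex, and POLR1B, the second largest subunit, were not called in any SCFA group. Their log2 values against TN were -0.58 to -0.48 and -0.43 to -0.25. For RRN3 the adjusted p from limma was 3.54e-05 to 0.00017, so that it missed the fold threshold and not the p. 3 pseudogene rows of RRN3 summed to 9.50 CPM, and reads shared among such copies were divided by RSEM.

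POLR1E (ENSG00000137054.15, chr9:37485948-37503697, plus strand) is the subunit that forms a heterodimer on RNA polymerase I, and it went against the rest of the group. It stood at 19.3 and 20.7 CPM for Ctrl, 23.2 and 25.4 for TN, 39.1 and 36.8 for PRTN, 33.3 and 33.7 for BUTN, 39.1 and 41.3 for TNPR and 38.6 and 35.0 for TNBU. All 8 SCFA libraries lay above the 4 others. The log2 values were 0.64 for PRTN, 0.46 for BUTN, 0.73 for TNPR and 0.60 for TNBU (SE 0.08, limma adjusted p from 6.17e-06 to 0.000355), and the BUTN value did not reach the fold threshold. Without TN replicate 1 the calls in PRTN and TNBU were lost, and the TNBU call was also lost without TNBU replicate 1, without the filter on low counts and in a fit of the 4 libraries compared.

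Among the snoRNP genes the changes split within complexes. Of 8, 3 were called lower in PRTN and 2 in each of BUTN, TNPR and TNBU. The lower calls made up 37.5, 25, 25 and 25% of the list. Among genes with a mean of at least 10 CPM the share was 23.2, 21, 24.8 and 24.7%. Outside PRTN the list was thus near that background. The highest log2 value of any of the 8 was 0.16, for RRP9 in TNPR. DKC1 (ENSG00000130826.17, chrX:154762742-154777689, plus strand) fell most, from 178 and 168 CPM in TN to 83.3 and 89.1 for PRTN, 91.3 and 94.4 for BUTN, 84.4 and 81.2 for TNPR and 91.0 and 81.6 for TNBU. None of the SCFA libraries reached the Ctrl level of 130.1 and 138 CPM. The log2 fold changes were -1.01 for PRTN, -0.90 for BUTN, -1.06 for TNPR and -1.01 for TNBU (SE 0.07, limma adjusted p from 5.75e-08 to 2.92e-07). GAR1, its partner in H/ACA snoRNPs, was also called lower in all 4 groups, with log2 values of -0.82, -0.64, -0.80 and -0.93. NHP2, the next protein of the same particle, was not called (log2 -0.33 to -0.08), and it shares 28.0% of its exon bases with RMND5B on the other strand.

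The C/D snoRNP proteins also differed among themselves. FBL (ENSG00000105202.8, chr19:39834458-39846379, minus strand), the methyltransferase that marks ribose in rRNA, stood at 147 and 154 CPM for Ctrl, 151 and 167 for TN, 168 and 172 for PRTN, 168 and 184 for BUTN, 157 and 151 for TNPR and 163 and 153 for TNBU. The PRTN and BUTN libraries lay above those of TN and Ctrl, narrowly over TN, while TNPR and TNBU overlapped with both. FBL was not called in any of these comparisons, with log2 values against TN of 0.09 for PRTN, 0.15 for BUTN, -0.04 for TNPR and -0.01 for TNBU (SE 0.07). The sign in PRTN, TNPR and TNBU changed with the scaling or the libraries used. NOP56, a core scaffold protein of the same particle, was called lower in PRTN alone, with log2 values of -0.59, -0.44, -0.57 and -0.52 over PRTN, BUTN, TNPR and TNBU that all lie near the threshold. Its paralogue NOP58 was not called (log2 -0.31 to -0.01), nor was RRP9, which binds the U3 snoRNA (log2 -0.23 to 0.16).

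NOLC1 (ENSG00000166197.16, chr10:102152176-102163871, plus strand), the chaperone with the highest level of the snoRNP list, stood at 264 and 277 CPM for Ctrl, 359 and 357 for TN, 367 and 368 for PRTN, 316 and 319 for BUTN, 385 and 343 for TNPR and 357 and 298 for TNBU. All TN and SCFA libraries lay above Ctrl, with TNBU replicate 2 lowest among them. Its log2 values against TN were 0.04 for PRTN, -0.17 for BUTN, 0.02 for TNPR and -0.14 for TNBU (SE 0.08, limma adjusted p from 0.0798 to 0.826), with no call and a sign that changed in TNPR and TNBU under some alternatives.

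NCL and NPM1, nucleolin and nucleophosmin, are abundant nucleolar proteins that chaperone precursor rRNA and ribosomal proteins, and both were called lower in all 4 groups. NCL (ENSG00000115053.15, chr2:231453531-231483641, minus strand) stood at 854 and 913 CPM for Ctrl, 1069 and 1015 for TN, 559.6 and 559.9 for PRTN, 609.9 and 651 for BUTN, 529 and 499 for TNPR and 581 and 534 for TNBU. The SCFA libraries all lay below TN and Ctrl, and those of TNPR were lowest. Its log2 fold changes were -0.90 for PRTN, -0.73 for BUTN, -1.02 for TNPR and -0.90 for TNBU (SE 0.06, limma adjusted p from 2.59e-08 to 5.54e-07). NPM1 (ENSG00000181163.13, chr5:171387116-171411810, plus strand) stood at 689 and 652 CPM for Ctrl, 796 and 753 for TN, 450.2 and 437 for PRTN, 476 and 505 for BUTN, 415 and 428 for TNPR and 456 and 442 for TNBU. For NPM1, too, no SCFA library overlapped with TN or Ctrl, and the log2 values were -0.80 for PRTN, -0.66 for BUTN, -0.88 for TNPR and -0.79 for TNBU (SE 0.05). Library size alone as scaling removed the BUTN call of both genes. In TN, NCL had the highest level per kilobase of exon of all members (117 CPM) and NPM1 the next (93.2 CPM), while DDX10 was lowest at 2.19 CPM. The length here is that of all annotated exons of a gene in GENCODE 44 joined (8919, 8311 and 18059 bases for these 3). It can exceed the length of the mRNA present, so the order depends on the annotation. 45 pseudogene rows of NPM1 together held 6.39 CPM, a small part of its level.

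**Figure D3:**
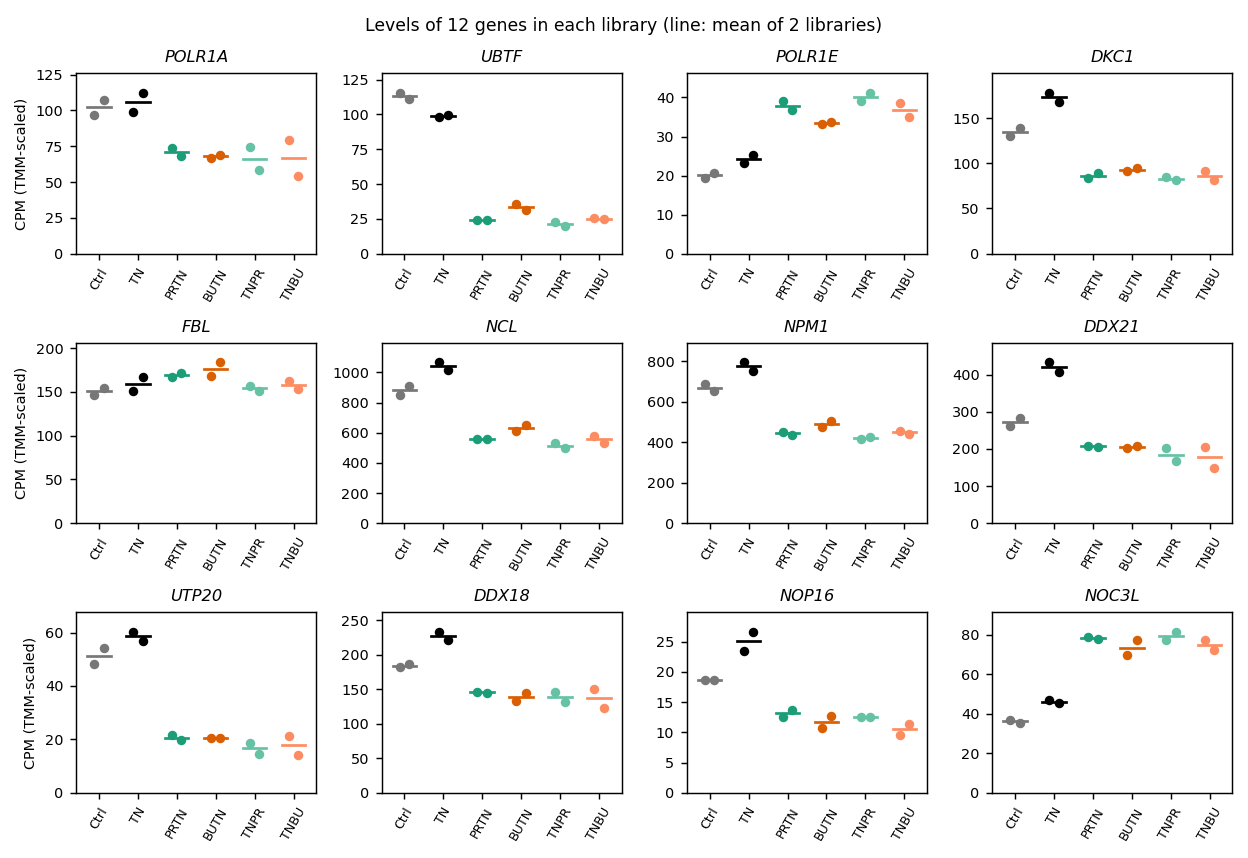
Points give the TMM-scaled CPM of each library and lines the mean of 2 libraries for 12 genes in the 6 groups, on axes that start at 0. UBTF is lowest in TNPR at 22.6 and 20.1 CPM, POLR1E and NOC3L are higher with an SCFA, and FBL lies between 147 and 184 CPM in all libraries.

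Of the 21 genes of the small subunit processome and 40S assembly, 7 were called lower in PRTN and 8 in each of BUTN, TNPR and TNBU. The other 13 were not called in any of the 4 groups. The 8 were UTP20, DDX21, WDR43, LTV1, UTP18, HEATR1, TSR1 and UTP15, with UTP15 short of the threshold in PRTN. The lower calls made up 33.3, 38.1, 38.1 and 38.1% of the list in PRTN, BUTN, TNPR and TNBU. Among genes with a mean of at least 10 CPM the share was 23.2, 21, 24.8 and 24.7%. UTP20 (ENSG00000120800.4, chr12:101280105-101386618, plus strand), a very large scaffold protein of the processome, fell most and stood at 48.1 and 54.4 CPM for Ctrl, 60.4 and 56.8 for TN, 21.6 and 19.7 for PRTN, 20.7 and 20.4 for BUTN, 18.7 and 14.6 for TNPR and 21.3 and 14.3 for TNBU. The SCFA libraries lay below all TN and Ctrl libraries, with the second replicates of TNPR and TNBU lowest. Its log2 fold changes were -1.5 for PRTN, -1.51 for BUTN, -1.82 for TNPR and -1.75 for TNBU (SE 0.14 to 0.15, limma adjusted p from 4.02e-07 to 1.81e-06).

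DDX21, the gene that was higher with TNF-α alone, stood with an SCFA at 208 and 205 CPM for PRTN, 203 and 208 for BUTN, 201 and 166 for TNPR and 206 and 149 for TNBU. All 8 values lay below the 263 and 284 CPM of Ctrl as well as below TN. The log2 fold changes against TN were -1.02 for PRTN, -1.03 for BUTN, -1.20 for TNPR and -1.26 for TNBU (SE 0.12, limma adjusted p from 1.66e-06 to 9.41e-06).

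WDR43 and HEATR1, which belong to the part of the processome that also helps transcription of ribosomal DNA, had log2 values of -1.28 to -1.04 and -0.84 to -0.76. HEATR1 shares 23.1% of its exon bases with LGALS8 on the other strand, which had a mean of 67.6 CPM. LTV1 and TSR1, late factors on the 40S precursor, had log2 values of -1.22 to -0.89 and -0.87 to -0.74. UTP18 and UTP15, WD-repeat proteins of early processome modules, had values of -0.94 to -0.82 and -0.87 to -0.53. The next members, WDR36 (-0.55 to -0.47) and NOL11 (-0.47 to -0.28), passed the adjusted p in all 4 groups without reaching the fold threshold.

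At the other end of the list stood UTP6 (ENSG00000108651.9, chr17:31860904-31901708, minus strand), a processome protein whose level was 44.9 and 40.9 CPM for Ctrl, 49.0 and 46.2 for TN, 53.4 and 52.5 for PRTN, 50.3 and 49.8 for BUTN, 56.2 and 57.2 for TNPR and 55.6 and 50.3 for TNBU. The SCFA libraries lay a little above TN, and none of the 4 differences was called, with log2 values of 0.16 for PRTN, 0.07 for BUTN, 0.25 for TNPR and 0.15 for TNBU (SE 0.07, limma adjusted p from 0.00829 to 0.403). UTP3, which takes part in early cleavage, had similar values of 0.04 to 0.17. NOP14 (-0.17 to -0.06), NOL10 (-0.15 to -0.04) and NOC4L (-0.15 to 0.03) stayed within the same narrow range around TN, without a call. RRP12, BYSL, WDR3, WDR75 and DDX10 were below TN in every SCFA group, with log2 values between -0.50 for RRP12 in TNBU and -0.12 for DDX10 in PRTN, and were not called.

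NOL6, the remaining processome member, differed between PRTN and BUTN. It stood at 38.7 and 36.2 CPM for Ctrl, 43.9 and 47.0 for TN, 47.7 and 50.5 for PRTN, 35.3 and 34.6 for BUTN, 46.5 and 45.3 for TNPR and 37.1 and 33.9 for TNBU. The BUTN and TNBU libraries lay below TN, those of PRTN just above it and those of TNPR within its range. Its log2 values against TN were 0.11 for PRTN, -0.38 for BUTN, 0.01 for TNPR and -0.36 for TNBU (SE 0.07), none past the fold threshold.

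60S assembly had the highest number of calls, with 8 of 18 genes lower for PRTN, 8 for BUTN, 10 for TNPR and 11 for TNBU, and 1 higher in each. The lower calls made up 44.4, 44.4, 55.6 and 61.1% of the list. Among genes with a mean of at least 10 CPM the share was 23.2, 21, 24.8 and 24.7%. Called lower in all 4 groups were NOP16, MRTO4, WDR12, RRP1, NIP7, PPAN and DDX18. NOP16 (ENSG00000048162.20, chr5:176383946-176388927, minus strand), a small nucleolar protein of the 60S precursor, fell most and stood at 18.7 and 18.7 CPM for Ctrl, 23.5 and 26.7 for TN, 12.6 and 13.7 for PRTN, 10.8 and 12.7 for BUTN, 12.6 and 12.5 for TNPR and 9.54 and 11.5 for TNBU. All SCFA libraries lay below TN and Ctrl, with TNBU replicate 1 lowest. The log2 fold changes were -0.93 for PRTN, -1.10 for BUTN, -1.0 for TNPR and -1.26 for TNBU (SE 0.11, limma adjusted p from 1.18e-06 to 7.91e-06). NOP16 shares 12.3% of its exon bases with ARL10 and 6.31% with HIGD2A on the other strand, and these genes are expressed at a similar level (means of 14.7 and 19.1 CPM beside 15.1 CPM).

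DDX18 (ENSG00000088205.12, chr2:117814691-117832377, plus strand), an RNA helicase with the highest CPM of the 60S list, stood at 182 and 187 CPM for Ctrl, 234 and 221 for TN, 146 and 145 for PRTN, 133 and 144 for BUTN, 146 and 132 for TNPR and 150.5 and 123 for TNBU. The SCFA libraries were below Ctrl and TN without overlap. Its log2 values of -0.64, -0.72, -0.71 and -0.74 (SE 0.08 to 0.09) lay close enough to the threshold that scaling by library size alone removed all 4 calls. MRTO4, related to a stalk protein of the large subunit, had log2 values of -1.10 to -0.91, and the 60S precursor proteins RRP1, NIP7 and PPAN had values of -1.09 to -0.88, -1.04 to -0.77 and -0.80 to -0.73. WDR12 belongs to the PeBoW complex with PES1 and BOP1, and the 3 proteins of that complex did not move alike. WDR12 was at -1.04 to -0.96 and was called lower in every SCFA group, PES1 was at -0.53 to -0.38 and not called, and BOP1 was at 0.35 to 0.46, above TN and not called.

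GNL3, a nucleolar GTPase also known as nucleostemin, was called lower in PRTN, TNPR and TNBU (-0.75 to -0.51), DDX56 in BUTN, TNPR and TNBU (-0.67 to -0.55), RRS1 in TNPR and TNBU (-0.65 to -0.43), and NOP2, an rRNA methyltransferase, in TNBU (-0.59 to -0.37). NOL9 was below TN (-0.42 to -0.26), GNL2 near it (lowest -0.12, in TNBU), and LAS1L and NOC2L above it (0.04 to 0.28 and 0.07 to 0.40), all without a call. NOL9 and LAS1L work together in cutting the spacer between the rRNAs of the 60S subunit.

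NOC3L (ENSG00000173145.11, chr10:94333226-94362959, minus strand), which carries 60S precursors through the nucleolus, was the only member called higher in all 4 groups. It stood at 36.9 and 35.5 CPM for Ctrl, 46.9 and 45.3 for TN, 78.7 and 77.8 for PRTN, 69.7 and 77.1 for BUTN, 77.2 and 81.6 for TNPR and 77.5 and 72.2 for TNBU. The 8 SCFA libraries lay above all 4 others without overlap. The log2 fold changes were 0.76 for PRTN, 0.67 for BUTN, 0.78 for TNPR and 0.70 for TNBU (SE 0.07, limma adjusted p from 1.02e-06 to 5.17e-06), and only a 2-fold threshold removed them among the alternatives run. Its partner NOC2L was not called, as given above.

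**Figure D4:**
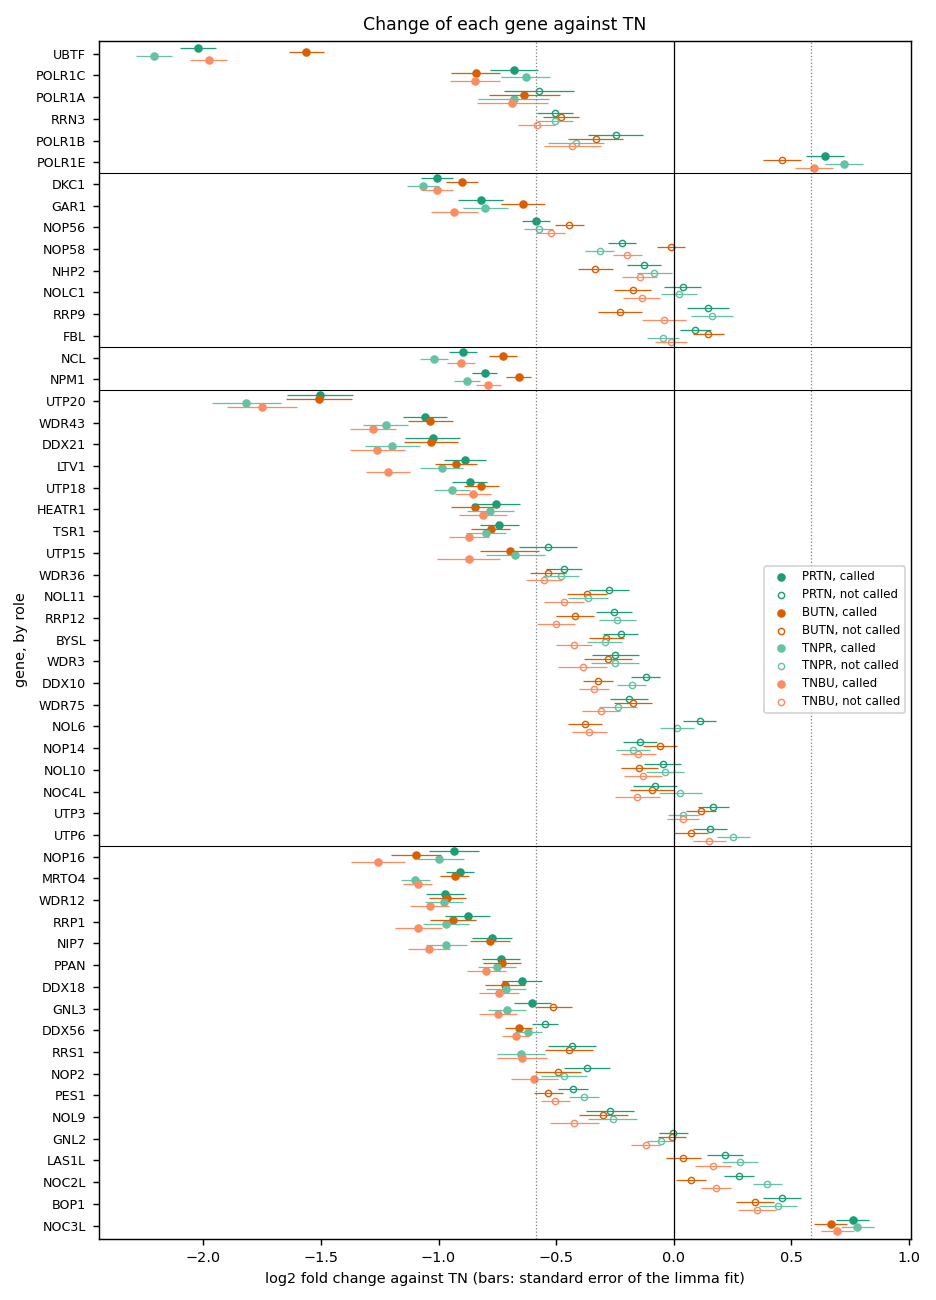
Points give the log2 fold change against TN of each of the 55 genes in PRTN, BUTN, TNPR and TNBU, filled where called, with bars for the standard error of the limma fit and dotted lines at a 1.5-fold change. UBTF and UTP20 lie farthest to the left, and POLR1E and NOC3L are the only genes with filled points on the right.

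Against untreated cells, 10 to 18 members were called lower and 2 higher. In PRTN 11 of 55 members (20%) were called lower than in Ctrl, against 16.9% of all genes tested and 21.9% of genes with a mean of at least 10 CPM. In BUTN it was 10 members (18.2%), against 14.9% and 19.9%, and in TNPR 14 members (25.5%), against 16.8% and 23.4%. These 3 shares are near the background of well expressed genes. In TNBU 18 members (32.7%) were called lower, against 16.5% and 23.2%. With library size alone as scaling the counts were 5, 4, 7 and 9, against 14.4, 12.3, 13.9 and 12.9% of all genes. The 2 members called higher in each group compare with 22.6% of all genes tested and 17.7% of those with a mean of at least 10 CPM for PRTN, 22% and 15.2% for BUTN, 23.6% and 17.8% for TNPR, and 23.6% and 16.4% for TNBU. The 2 higher genes were POLR1E and NOC3L in every group, with log2 values against Ctrl of 0.92, 0.74, 1.00 and 0.88 for POLR1E and 1.11, 1.02, 1.13 and 1.05 for NOC3L. UBTF was the most lowered again, at -2.23, -1.76, -2.41 and -2.18, followed by UTP20 at -1.31, -1.31, -1.62 and -1.56. These 4 comparisons share the Ctrl libraries. The counts in TNPR and TNBU both fell when replicate 2 of the group was left out. In each group that library had the lower sum of the members (4218 CPM beside 4489 CPM in TNPR, 4059 CPM beside 4483 CPM in TNBU). The TNBU share above the background was therefore not shown to hold without that library.

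Between the 2 SCFAs and between the times of addition, no member was called by limma, edgeR or DESeq2. Over all genes tested, 0.168% were called either way in PRTN vs BUTN, 0.00822% in TNPR vs TNBU, 0.16% in TNPR vs PRTN and 0.267% in TNBU vs BUTN. An unadjusted limma p under 0.05 was reached by 13, 7, 3 and 12 of 55 members in these comparisons. Among the 10194 genes with a mean of at least 10 CPM it was reached by 2132, 1126, 1498 and 2187. The members' shares were thus near or below that background. UBTF and NOL6 passed the adjusted p without the fold threshold. UBTF was lower in PRTN than in BUTN by a log2 difference of -0.46 (95% interval -0.64 to -0.29, limma adjusted p = 0.0323) and lower in TNBU than in BUTN by -0.42 (-0.59 to -0.24, adjusted p = 0.0418). NOL6 was higher in PRTN than in BUTN by 0.49 (0.34 to 0.64, adjusted p = 0.0175). In TNPR vs TNBU the NOL6 difference was 0.37 (0.22 to 0.53, adjusted p = 0.231), which did not pass. The change of the SCFA difference with the time of addition was not called for any member, and the number of members with an unadjusted p under 0.05 was 0 in limma, 1 in edgeR and 0 in DESeq2. Over all 55 members the outermost bounds of the 95% intervals were -0.64 (UBTF) and 0.64 (NOL6) in PRTN vs BUTN, -0.43 (UTP20) and 0.53 (NOL6) in TNPR vs TNBU, -0.66 (UTP20) and 0.31 (NOC4L) in TNPR vs PRTN and -0.59 (UBTF) and 0.39 (RRP9) in TNBU vs BUTN. The groups were not shown to be alike.

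Promoter windows were examined because 22 to 26 of the members were called lower with an SCFA. RefSeq promoter sequence (build GRCh38.p14, 250 bases before to 50 bases after a start site) was matched for 47 of 55 members by symbol, in 55 windows since 8 genes have 2 of them. NOP58, NOLC1, NOL10, BOP1, RRS1, RRP12, DDX18 and POLR1E had no entry. Letters were searched on both strands, and no 2 matches of different motifs shared bases in the members' windows. The E-box CACGTG, which MYC and related factors bind, was in 30.9% of the 55 windows, beside 8.93% of the 18507 windows of genes tested. The ETS core CCGGAAG was in 41.8%, beside 14.3%, and the NRF1 core GCATGCGC in 5.45%, beside 4.16%. No E-box was found in the 8 windows of the RNA polymerase I group, of which 5 (62.5%) held the ETS core. These 5 belong to POLR1B, POLR1C and RRN3, and the 2 windows of RRN3 overlap and share 1 match. The following stretches of 30 bases surround 1 match each, with the match in capitals, for 4 named members with an E-box and for 3 members of the RNA polymerase I group with an ETS core. They lie, in the order shown, at chr10:68956604-68956633 (plus strand), chr12:101280083-101280112 (plus), chr19:39846356-39846385 (minus), chr10:94362903-94362932 (minus), chr2:112542412-112542441 (plus), chr6:43516954-43516983 (plus) and chr16:15094291-15094320 (minus).
DDX21: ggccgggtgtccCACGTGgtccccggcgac
UTP20: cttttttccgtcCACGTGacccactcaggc
FBL: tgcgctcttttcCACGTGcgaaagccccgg
NOC3L: tagggacttcggCACGTGtgtcattccccg
POLR1B: tgcggccactaCTTCCGGcgtgtaccgaga
POLR1C: aaaagcaacttCCGGAAGctggggacgtgg
RRN3: ggcacgcgcaaCTTCCGGgacagaggctgt
The first base of the match is 31 bases before the start in DDX21 and 10 bases before it in UTP20, and it is base 7 of the transcript in FBL and base 20 in NOC3L. These 4 genes with an E-box comprise 2 that fell, 1 that was not called and 1 that rose with an SCFA. Of the 17 members with an E-box, 8, 7, 8 and 9 were called lower in PRTN, BUTN, TNPR and TNBU, and of the 30 members with a window and none, 13, 15, 15 and 15. The median log2 values of the 17 were -0.43, -0.51, -0.47 and -0.59, beside -0.54, -0.59, -0.60 and -0.63 for the 30. Both sets thus held members that were called lower and members that were not. The windows of UBTF held none of the 3 motifs.

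Genes of the same pathway outside the 55 had medians closer to 0 than the median of all 55 members, and other snoRNP genes had medians above 0. Role by role this did not hold throughout. Of 10 further genes of the RNA polymerase I machinery, 2, 2, 2 and 3 were called lower in PRTN, BUTN, TNPR and TNBU, and 1 higher in each. These are shares of 20, 20, 20 and 30% lower and 10% higher, beside 23.2, 21, 24.8 and 24.7% lower among genes with a mean of at least 10 CPM. The lowest was TAF1D, a subunit of the promoter selectivity factor, at log2 -1.06, -0.99, -1.02 and -1.13, and the gene called higher was TWISTNB, which encodes the stalk subunit RPA43, at 0.99, 0.72, 0.85 and 0.65. Of 33 tested among 34 further genes of 40S assembly 7, 6, 7 and 10 were called lower, and of 43 further genes of 60S assembly 7, 7, 10 and 13, with 1 called higher in TNPR in both lists and 1 in TNBU for 40S. These are shares of 21.2, 18.2, 21.2 and 30.3% for 40S and 16.3, 16.3, 23.3 and 30.2% for 60S, near the 23.2, 21, 24.8 and 24.7% of genes with a mean of at least 10 CPM. Their medians were -0.23, -0.32, -0.37 and -0.41 for 40S and -0.31, -0.37, -0.38 and -0.41 for 60S. The 21 members of the 40S list had medians of -0.25, -0.38, -0.29 and -0.47, so in TNPR the further 40S genes stood lower. The 18 members of the 60S list had medians of -0.49, -0.52, -0.63 and -0.66. Of 10 further snoRNP genes, calls were all in the higher direction, 2 in PRTN (20%), 2 in TNPR (20%) and 1 in TNBU (10%). Among genes with a mean of at least 10 CPM 18, 18.1 and 16.9% were called higher in these groups. The highest was RUVBL2, an ATPase of snoRNP assembly, at 0.71, 0.57, 0.79 and 0.72 in PRTN, BUTN, TNPR and TNBU. Of 15 genes of the RNA exosome and related nucleases 2 (13.3%) were called lower in each group, below that background of lower calls. EXOSC10 fell most, at -0.98, -0.79, -0.95 and -1.0. Of 21 genes of the RNA polymerase III machinery 4, 4, 5 and 5 were lower (19, 19, 23.8 and 23.8%) and 3, 4, 3 and 3 higher (14.3, 19, 14.3 and 14.3%). Both are near the background of genes with a mean of at least 10 CPM, where 18, 15.3, 18.1 and 16.9% were higher. GTF3C6, a subunit of TFIIIC, was lowest at -3.00, -2.55, -2.97 and -2.98. Of 79 cytosolic ribosomal protein genes 6, 5, 6 and 4 were lower (7.59, 6.33, 7.59 and 5.06%), with medians of -0.21, -0.16, -0.22 and -0.20 and RPL10 lowest at -1.12, -1.0, -1.16 and -1.10.

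MYC mRNA was not called in TN or in any SCFA group. It stood at 159.9 and 170.0 CPM for Ctrl, 219 and 229 for TN, 195 and 207 for PRTN, 185 and 196 for BUTN, 205 and 181 for TNPR and 199.7 and 165 for TNBU. The TN libraries were highest, and the SCFA libraries lay between TN and Ctrl, with TNBU replicate 2 inside the Ctrl range. Its log2 difference was 0.44 in TN vs Ctrl and -0.16, -0.24, -0.22 and -0.30 in the 4 SCFA groups against TN. Of 12 genes of the MYC network, 3, 2, 3 and 3 were called higher, and 1 was called lower in each of BUTN and TNPR. The higher calls made up 25, 16.7, 25 and 25% of this list. They made up 23.9, 23.1, 24.9 and 25% of all genes tested. At a mean of at least 10 CPM the share was 18, 15.3, 18.1 and 16.9%. MKI67, a marker of dividing cells, stood at 482 and 599 CPM for Ctrl, 528 and 505 for TN, 331 and 297 for PRTN, 335 and 322 for BUTN, 288 and 273 for TNPR and 361 and 281 for TNBU, with log2 values of -0.72 for PRTN, -0.65 for BUTN, -0.88 for TNPR and -0.70 for TNBU against TN. Of 16 proliferation markers 7 (43.8%) were called lower and 1 (6.25%) higher in each SCFA group. The lowest was CCNB1 at -1.56, -1.29, -1.74 and -1.73. Lower calls made up 40, 41.8, 45.5 and 47.3% of the 55 members. Among genes with a mean of at least 10 CPM they made up 23.2, 21, 24.8 and 24.7%. The part of proliferation in the members' changes was not tested.

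Marker sums moved with the SCFA groups as well. The sum of 8 epithelial markers was 1740 to 1855 CPM in Ctrl and TN and 2045 to 2642 CPM with an SCFA. That of 10 proximal tubule markers went from 184 to 228 CPM down to 74.3 to 95.8 CPM, most of it GGT1. SLC22A6 was at 0 in all libraries. LRP2 and HNF4A were detected only in libraries with an SCFA, so the sum does not describe each marker. Of 7 leukocyte markers 1 had a mean over 1 CPM, and they summed to 1.41 to 1.91 CPM without and 3.38 to 5.70 CPM with an SCFA. The sum of 6 fibroblast and endothelial markers went from 6.92 to 9.57 CPM up to 35.9 to 65.0 CPM, most of it LUM. The part of these shifts in the members' values was not tested.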

How the data were processed

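Poly(A) RNA of HK2 cells was sequenced in 12 libraries with a stranded kit. Expected counts per gene were deposited by the authors, who estimated them with RSEM from reads aligned with STAR 2.6.1a to GRCh38 after FastQC 0.11.5, as far as the submitters' processing notes and the methods say, with GENCODE 26 gene models. RSEM divides reads among near-identical copies, and 19.3% of values were not whole, as were values of 38 members. The strand setting of the counting is not given in the sources used here.

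The 55 members and the lists of other genes were chosen with earlier results of these data known. Genes were kept where the geometric mean of the count plus 1, less 1, was at least 1, which removed 33936 genes. Unrounded counts were scaled by TMM and fitted with limma 3.58.1 (voom, empirical Bayes, prior degrees of freedom 6.12) in R 4.3.3, with all 12 libraries in 1 model of 6 groups, and p-values were adjusted by Benjamini-Hochberg over 24342 genes. The threshold was a fold change over 1.5 with an adjusted p under 0.05. Alternatives were edgeR 4.0.16 and DESeq2 1.42.0 on rounded counts, other scalings, filters, thresholds and fits, the replicate number as a block, and each replicate left out. The procedure was tested on simulated data. Libraries held 27269986 to 33851130 counts, and 3 counts were worth 0.0886 to 0.110 CPM. The 2 replicates of each group limit the precision. The part of counting error in the spread of the members between replicates was not tested.

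Values in every library were given for the member of each role with the highest mean CPM, the lowest and the highest mean log2 fold change against TN, members called in TN vs Ctrl and members called against the direction of most. NOL6 was added after its values were seen. Other members are named with ranges. Gene positions are from GENCODE 44 on GRCh38. Every library column belonged to a sample.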

Additional observations from a re-analysis of the deposited data

Results flagged for a closer look

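For 3 differences between SCFA groups the adjusted p from limma was under 0.05 while the fold was under 1.5, so the size of the change against TN differed between the groups. UBTF was lower in PRTN than in BUTN by a log2 difference of -0.46 and lower in TNBU than in BUTN by -0.42. NOL6 was higher in PRTN than in BUTN by 0.49. Propionate and butyrate were given at different doses, and the BUTN libraries enter all 3 differences.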

How the results depend on the processing

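Counts of called members stayed within 1.5 times their value in 243 of 289 recalculations. These include comparisons in which no member was called, where a count that stayed at 0 was taken as unchanged. With a fold change over 2, members called lower than in TN numbered 5 for PRTN, 5 for BUTN, 7 for TNPR and 11 for TNBU, members called higher 0 in each, members called lower than in Ctrl 2 in each, and members higher in TN than in Ctrl 0. With no fold threshold, 17 were higher in TN than in Ctrl. Against TN, 35, 39, 38 and 40 were lower and 6, 3, 6 and 4 higher. Against Ctrl, 26, 28, 28 and 31 were lower. In PRTN vs BUTN 2 differed, and in TNBU vs BUTN 1. Either way, 41, 42, 44 and 44 of 55 members passed the adjusted p against TN. Among the 10194 genes with a mean of at least 10 CPM it was 7732, 7500, 7888 and 7766, a similar share. Against Ctrl it was 39, 37, 40 and 39 members, beside 7614, 7328, 7715 and 7640 of these genes. The share of all genes at the 2-fold threshold is not given here. With library size alone, 0 were higher in TN than in Ctrl, 15 were lower and 2 higher in BUTN than in TN, 3 were higher in PRTN and TNPR, and 5, 4, 7 and 9 were lower than in Ctrl. In a fit of the groups compared, 0 were higher in TN than in Ctrl and 1 was higher in TNBU than in TN, and without the filter 1 was higher in TNBU. Leaving out 1 replicate gave 0 to 0 higher in TN than in Ctrl. Against TN it gave 21 to 24 lower and 1 to 2 higher in PRTN, 22 to 23 and 1 to 1 in BUTN, 21 to 28 and 2 to 2 in TNPR, and 23 to 34 and 1 to 2 in TNBU. Against Ctrl it gave 10 to 11, 9 to 12, 9 to 18 and 12 to 22 lower. With 1 library left in a group, that library is assumed to vary like the others. The causes were not tested.

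Of 1050 values of named members 14 changed sign, to values between -0.10 and 0.19. The 1050 include changes of threshold, which leave the fold change as it is and cannot change its sign. POLR1A in TN vs Ctrl was -0.0068 with library size alone, -0.028 without Ctrl replicate 1 and, over all replicates left out, between -0.044 (TN replicate 2) and 0.14 (TN replicate 1). NOLC1 in TNPR was -0.0053 in a fit of the groups compared, -0.013 without TN replicate 2 and between -0.10 (TNPR replicate 1) and 0.10 (TNPR replicate 2) over all replicates left out, and in TNBU 0.060 with library size alone. FBL was -0.0067 without TN replicate 1 to 0.14 without TN replicate 2 in PRTN, and 0.13 in TNPR with library size alone. In TNBU FBL was 0.0043 with DESeq2, 0.0042 with relative log expression factors, 0.19 with library size alone, 0.049 without TN replicate 2 and 0.035 without TNBU replicate 2. The replicate numbers were not shown to pair the libraries, since deviations of same-numbered libraries correlated at -0.0791 to 0.240 over 15 pairs of groups, over 0.1 in 1. With the replicate number as a block, 22, 23, 25 and 26 members were called lower than in TN in PRTN, BUTN, TNPR and TNBU, as without it.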
